A study of Saccharomyces cerevisiae with 4 samples.

Results

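Small nucleolar RNA (snoRNA) genes that stand outside protein-coding genes made up 67 of the 76 nuclear snoRNA genes, and 67 of the 6431 nuclear genes, in the RefSeq gene table of the yeast R64 assembly. The rule that defines them uses only the annotation: nuclear genes of biotype snoRNA whose interval is not wholly inside a protein-coding gene. The 8 snoRNA genes wholly inside a coding gene were left out, and so was SNR52, which is transcribed by RNA polymerase III. The measurement was chromatin immunoprecipitation sequencing of budding yeast (Saccharomyces cerevisiae) with the M2 antibody against the FLAG tag. One group carried Acs2 with a FLAG tag (Acs2-FLAG), and the other was untagged. Acs2 is an acetyl-CoA synthetase found in the nucleus and the cytosol. Both groups grew in YPD, a rich medium, with 2% glucose at 28 °C until the culture reached an OD600 of 0.7 to 1.0, and 1% formaldehyde was used for crosslinking. The strain background, the position of the tag and the number of clones were not stated in the labels. Each group was 1 immunoprecipitate with 1 input library, so there is no replicate error for any value and the strains could not be compared by a test.

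snoRNAs guide the chemical modification of ribosomal RNA in the nucleolus, and a few of them are needed for cleavage of its precursor. Box C/D snoRNAs direct 2′-O-methylation with the methyltransferase Nop1, and box H/ACA snoRNAs direct pseudouridylation with the pseudouridine synthase Cbf5. In budding yeast most snoRNA genes have promoters of their own and are transcribed by RNA polymerase II, many as single genes and some as clusters that give one precursor cut by the nuclease Rnt1. Of the 67 genes, 40 encode box C/D and 27 box H/ACA RNAs.

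The values are the authors' deposited peaks, with 912 peaks in the Acs2-FLAG list and 34 in the untagged list. The fold of a peak is the authors' ratio of fragments at its summit, the position of the highest signal, to the local background. Solved from the deposited values, the lowest local background was 291.1 fragments in the Acs2-FLAG library and 198.4 in the untagged library. A 95% interval given after a fold covers the counting error of the immunoprecipitate only.

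Acs2-FLAG peaks lay at nearly all of these genes. An Acs2-FLAG peak shared at least 1 bp with 63 of the 67 genes (94.0%, exact Clopper-Pearson 95% interval 85.4 to 98.3), against 18.4% of all nuclear genes and 13.5% of protein-coding genes. This interval treats genes as independent, although some shared a peak, and it holds no error between libraries. Among the 275 nuclear tRNA genes, which are also short, a peak met 98.2%. The snoRNA genes had a median length of 161 bp and the protein-coding genes one of 1200 bp. An untagged peak met 0 of the 67 genes, against 0.653% of all nuclear genes, so that a count of 0 among 67 genes is near the share of the whole table. The nearest untagged peak was 2777 bp away, beside SNR84. The 63 genes shared 50 distinct Acs2-FLAG peaks, and 0 of these 50 overlapped an untagged peak, against 22 of all 912 Acs2-FLAG peaks (2.41%), which is too small a share to set the 50 apart. Genes of both guide classes were met, with 37 of 40 box C/D and 26 of 27 box H/ACA genes. Peaks with a fold of at least 2 met 33 of the 67 genes, against 8.96% of all nuclear genes. These 33 include 6 genes whose peak had its summit in a tRNA gene. Counted per peak, 21 of the 50 had such a fold, and 353 of all 912 (38.7%), which are similar shares. Peaks with a fold of at least 1.5 met 55, against 12.4%, and those with a −log10 q of at least 5 met 61, against 16.2%.

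A peak list holds no value below its calling threshold, so the untagged list does not show how much weak signal the untagged library had at these genes. At its lowest background, an untagged fold below 1.26 would not have reached the lowest −log10 p of that list, and 2 of the 50 snoRNA peaks were themselves below that fold. This bound holds only at the lowest background, and the lowest fold in the untagged list was 1.03. Outside the ribosomal DNA, 18 Acs2-FLAG peaks overlapped an untagged peak. The lowest Acs2-FLAG fold among these 18 was 2.07, and 16 of the 50 snoRNA peaks exceeded it. These 16 include the 3 peaks that also met a tRNA gene and had their summit in it. Since 2.07 is the low end of the folds at peaks with an untagged counterpart, exceeding it does not set the 16 apart from such peaks. The part of untagged background in the 50 peaks, strong or weak, was not tested.

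Across the 50 peaks at these genes the fold ran from 1.25 to 3.65, and its median was 1.88 (quartiles 1.63 and 2.18). The 261 other peaks at tRNA genes had a median of 3.17. The 597 peaks that met no tRNA gene and no snoRNA gene other than SNR52 had a median of 1.39. The snoRNA peaks thus lay between these groups in their middle values while their ranges overlapped both, and no test between the groups was made. Of the 50 peaks, 38 lay above 1.61, the median of all Acs2-FLAG peaks. With tRNA genes, the ribosomal DNA and peaks with an untagged counterpart left aside, 7 of the 25 strongest Acs2-FLAG peaks (28.0%) met one of these snoRNA genes, against 47 of all 621 peaks left (7.57%).

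**Figure D1:**
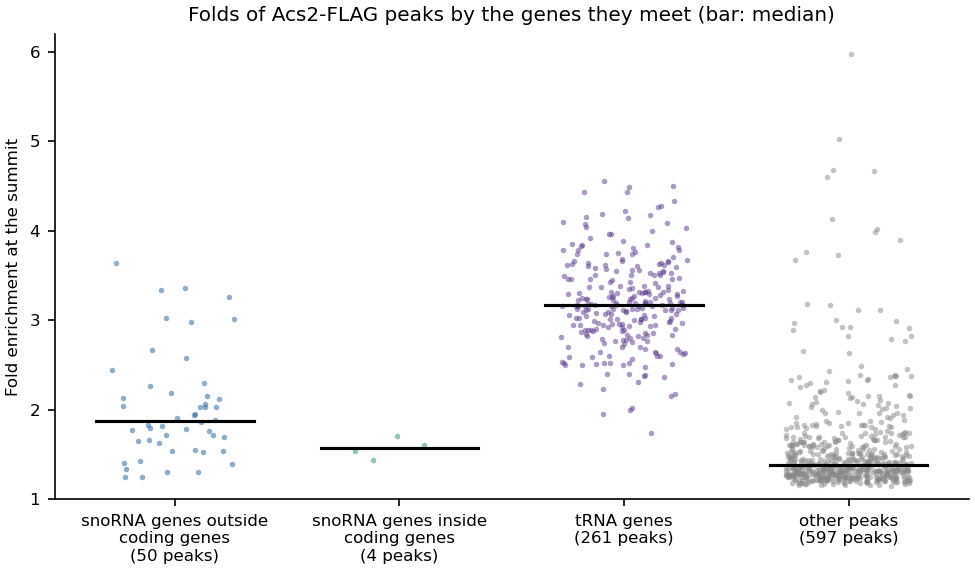
Fold enrichment at the summit (vertical axis, a ratio) of each Acs2-FLAG peak, by the genes it meets; each point is 1 peak and each bar is a median. The 50 peaks at snoRNA genes outside coding genes have a median of 1.88, against 3.17 at tRNA genes and 1.39 at other peaks. The 3 snoRNA peaks that also meet a tRNA gene are among the 50.

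The genes fell into 3 arrangements. In 47 genes the nearest other member was at least 500 bp away and no tRNA gene lay in the peak, and 43 of these lone genes had a peak, each of its own. A further 14 genes stood under 500 bp from another member, with no tRNA gene in the peak, and shared 4 peaks. The remaining 6 genes lay in 3 peaks that also met a tRNA gene. The distance threshold fell in a wide gap: SNR67 and SNR53 were the most distant clustered neighbours at 265 bp, while SNR65 and SNR189 were the closest lone ones at 1327 bp. Only SNR10, SNR60 and SNR17A overlapped a coding gene in part. SNR10 came closest to exclusion, with 216 of its 245 bp in YGL088W.

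**Figure D2:**
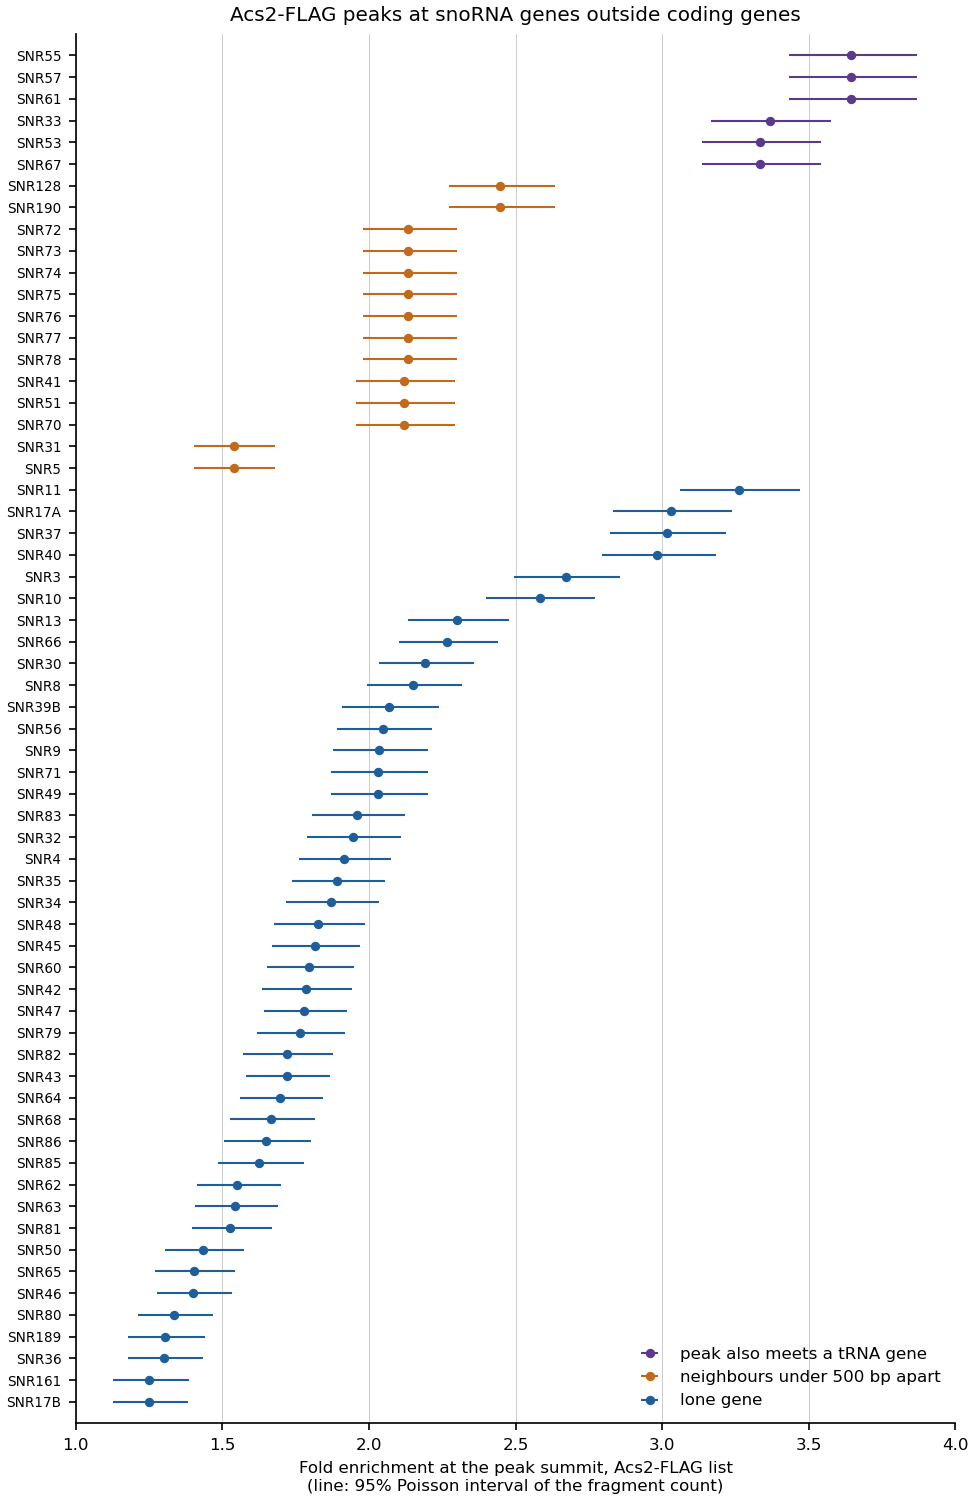
Fold enrichment at the summit in the Acs2-FLAG list (horizontal axis, a ratio) for the 63 snoRNA genes with a peak; points are the authors' values and lines are 95% Poisson intervals of the fragment count. Genes of a cluster repeat the value of their shared peak. The 6 genes whose peak also meets a tRNA gene lie between 3.33 and 3.65, and the lone genes run from 1.25 to 3.26.

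Among the lone genes, the strongest peak was at SNR11 (chromosome XIII, 652275 to 652532), a box H/ACA guide. Its fold was 3.26 (3.06 to 3.47), from 1003 fragments at the summit over a background of 307.0. SNR17A (chromosome XV, 780107 to 780596), one of the 2 genes for U3, the box C/D snoRNA that is required for cleavage of the ribosomal RNA precursor, had a fold of 3.03 (2.83 to 3.24), with 884 fragments over 291.1. SNR37 (chromosome X, 228094 to 228479), a box H/ACA guide, had 3.02 (2.82 to 3.22). SNR40 (chromosome XIV, 89210 to 89306), a box C/D guide, had 2.98 (2.79 to 3.18). The intervals of these 4 genes overlapped, so their order is not resolved by counting error. In the whole list they ranked 123, 186, 194 and 203 of 912.

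Lower folds followed without a clear break. SNR3 had 2.67 (2.49 to 2.86) and SNR10 (chromosome VII, 345986 to 346230) had 2.58 (2.40 to 2.77), and their intervals lay below that of SNR11, while that of SNR3 overlapped those of SNR17A, SNR37 and SNR40. SNR10 is a box H/ACA RNA that also takes part in early cleavage of the precursor. SNR13, a box C/D gene widely used as a model of snoRNA transcription termination, had 2.30 (2.13 to 2.48), and SNR66, also box C/D, had 2.27 (2.10 to 2.44). SNR30 (chromosome XII, 198784 to 199389), an H/ACA RNA essential for making the small ribosomal subunit RNA, had 2.19 (2.03 to 2.36). SNR8, an H/ACA guide, had 2.15 (1.99 to 2.32). SNR4 and SNR45, the box C/D RNAs that guide acetylation of the small subunit RNA, were in the middle of the range at 1.91 (1.76 to 2.08) and 1.81 (1.67 to 1.97).

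At the low end, SNR17B (chromosome XVI, 281056 to 281517), the other U3 gene, had a fold of 1.25 (1.13 to 1.38). It had 377 fragments over 301.5, and its peak covered 30.1% of the gene, at the 3′ end. The fold at SNR17A was 2.42 times that at SNR17B, and the intervals lay apart. The U3 genes are near-identical copies, and how reads that match both were placed is not stated in the labels or file headers, so the value at either copy is uncertain. SNR161 also had 1.25 (1.13 to 1.39), followed by SNR36 at 1.30 (1.18 to 1.43), SNR189 at 1.31 (1.18 to 1.44) and SNR80 at 1.34 (1.21 to 1.47), all 4 of them box H/ACA genes. At SNR36 and SNR80 the summit lay in a neighbouring coding gene, 1038 bp past the end of SNR36 in SER1 and 536 bp before the start of SNR80 in RPL12A.

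The other 26 lone genes with a peak lay between 1.40 (SNR46 and SNR65) and 2.07 (SNR39B). By guide class, the 23 lone H/ACA genes with a peak had a median fold of 1.87 (quartiles 1.58 and 2.09), and the 20 lone C/D genes one of 1.81 (1.64 and 2.05). A fold of at least 2 was reached by 8 of the 23 H/ACA genes and 7 of the 20 C/D genes. The classes thus overlapped over almost their whole range. H/ACA genes were longer, with a median of 201 bp against 100.5 bp, and across the 43 lone genes length and fold had a Spearman's rho of 0.07 and a Pearson's r of 0.11. Within the classes, Spearman's rho was 0.42 over the 23 H/ACA genes and -0.14 over the 20 C/D genes, and Pearson's r was 0.10 and 0.13. These points share 1 library, and the correlations are descriptions only.

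Summits lay in or close to the snoRNA genes. At 32 of the 43 lone genes the summit was inside the gene, and at 39 it was inside or at most 100 bp away. Over all 67 genes, 34 held a summit (50.7%), against 12.0% of all nuclear genes and 93.5% of tRNA genes. The summit fell a median of 50 bp from the middle of a lone gene. Only genes that share a peak enter this median, and these peaks were a median of 664 bp wide, which itself limits the distance. The count within 100 bp and the median distance have no comparison set. The median fold was 1.93 at the 32 lone genes that held their summit and 1.54 at the 11 others. Of these 11, SNR56 and SNR48 had the summit 1 and 2 bp before the start, SNR46 4 bp before it and SNR68 56 bp before it. SNR63, SNR189, SNR45 and SNR62 had it 1, 3, 42 and 111 bp past the end, that of SNR62 being in the coding gene CUE5, and SNR65 had it 244 bp past the end in RPS14A. SNR36 and SNR80 complete the 11.

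Within the gene, summits lay more often towards the 3′ end. At 22 of the 32 lone genes the summit was nearer to the 3′ end than to the 5′ end, and the median position was 63.3% of the gene length from the start (quartiles 46.0 and 79.0%). The median was 74.1% for 19 H/ACA genes and 58.8% for 13 C/D genes. At SNR37 the summit was 337 bp into a gene of 386 bp, at SNR42 291 bp into 351 bp, and at SNR35 198 bp into 204 bp. SNR17A, at 38.2%, was among the exceptions, and SNR81 and SNR50 had it near the 5′ end, at 12.5 and 18.0%. The 22 include SNR86 at 99.4%, in a peak of 3110 bp that also met FAA4. They also include SNR17B at 96.3%, where the peak covered 30.1% of the gene. Summit positions were not compared with those along other genes, so whether this placement is particular to snoRNA genes was not tested.

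The peaks themselves also reached farther past the 3′ end than before the 5′ end. For the 43 lone genes the peak began a median of 140 bp before the start and ended a median of 282 bp past the end, and the 3′ side was the longer one at 32 of 43. The split was alike in both classes, with 17 of 23 H/ACA and 15 of 20 C/D genes. Measured in the same way, the 255 other tRNA genes that were alone in their peak had medians of 215 bp before the start and 202 bp past the end, and the 3′ side was the longer one at 102 of 255. No test of this difference was made. Of the 43 lone peaks, 29 also met a coding gene, and the part of these neighbours in how far the peaks reached was not tested. SNR86 (chromosome XIII, 762110 to 763113), the longest gene, lay in the widest peak, of 3110 bp, which reached 2099 bp past its end into FAA4, a fatty acyl-CoA synthetase gene.

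**Figure D3:**
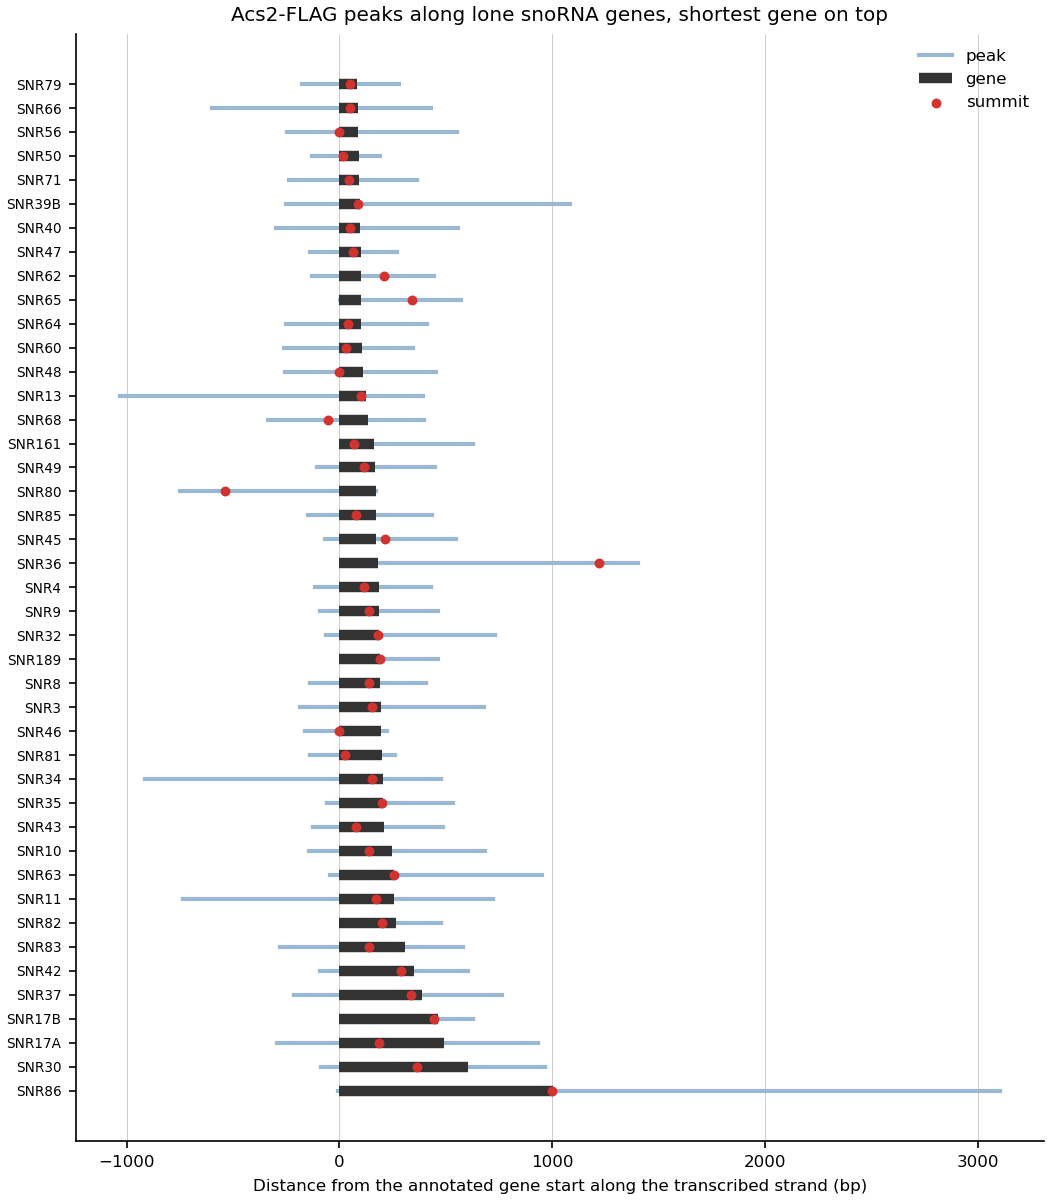
Position of the Acs2-FLAG peak (light line), its summit (red point) and the gene (dark bar) for the 43 lone snoRNA genes with a peak, in bp from the annotated gene start along the transcribed strand. Summits lie inside the gene at 32 of 43, and the peak reaches farther past the 3′ end than before the 5′ end at 32 of 43.

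A ribosomal protein gene lay in 9 of the 50 peaks (18.0%), against 90 of all 912 Acs2-FLAG peaks (9.87%), and no test of this difference was made. At SNR11 with RPL36A, SNR13 with RPL27B, SNR39B with RPL7A, SNR32 with RPL42B and SNR34 with RPS29A, the summit was inside the snoRNA gene. At SNR56 with RPS8A and SNR63 with RPL31A it was 1 bp outside it. At SNR65 with RPS14A and SNR80 with RPL12A it was inside the ribosomal protein gene. A summit marks the single highest position, so signal from both genes can be in 1 peak, and their parts cannot be told apart.

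The clustered genes were covered by 1 peak per cluster. The largest, SNR78, SNR77, SNR76, SNR75, SNR74, SNR73 and SNR72 (chromosome XIII, 297278 to 298651), 7 box C/D guides on the same strand, lay under a peak of 1871 bp with a fold of 2.13 (1.98 to 2.30). Its summit was between SNR76 and SNR75, 557 bp from the start of a cluster of 1374 bp. SNR41, SNR70 and SNR51 (chromosome XVI, 718700 to 719242), also box C/D, shared a peak of 2.12 (1.96 to 2.29), with the summit 16 bp past the end of SNR70. The near-equal folds came from 692 fragments over 323.7 and from 618 over 291.1. SNR190 and SNR128 (chromosome X, 139566 to 139950), of which SNR128 encodes U14, a box C/D RNA needed to make the small subunit RNA, shared a peak of 2.45 (2.27 to 2.63). The summit of that peak was 91 bp into SNR190, the upstream gene.

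SNR31 and SNR5, both H/ACA genes, differ from the other clusters in that they are transcribed away from each other, 220 bp apart. Their shared peak had a fold of 1.54 (1.40 to 1.68) with its summit 98 bp into SNR5. Its interval lay below those of the 3 clusters transcribed in one direction. Each cluster is 1 peak and counts as 1 value, so the 14 genes give 4 values and not 14.

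**Figure D4:**
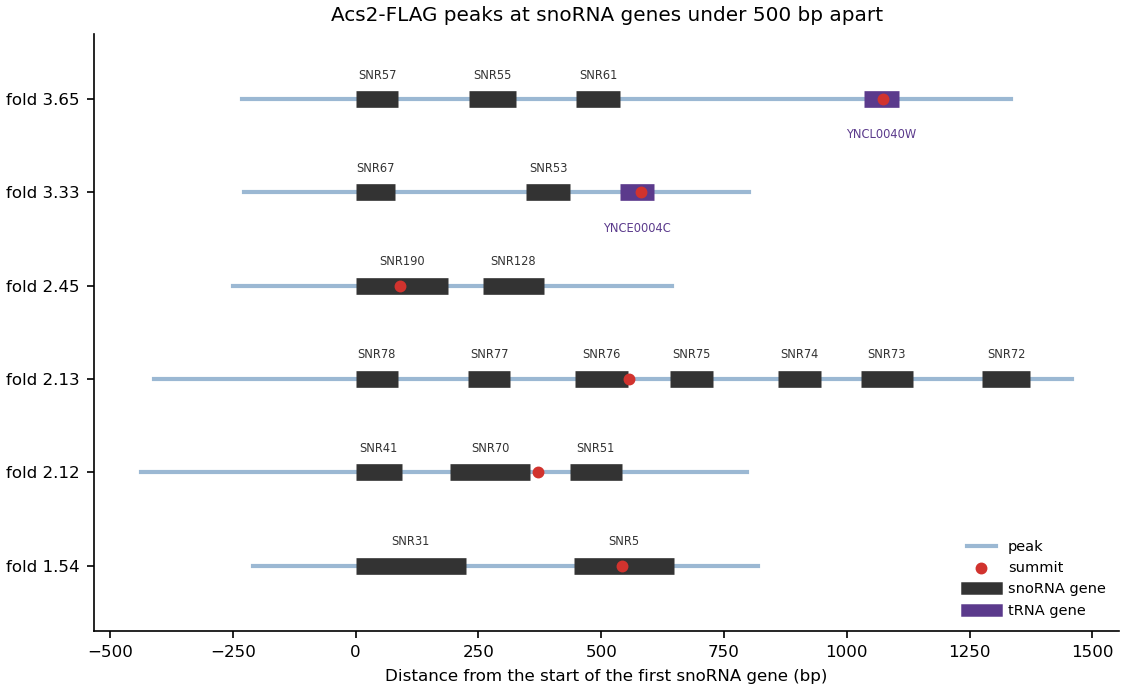
Acs2-FLAG peaks (light lines) and summits (red points) at the 6 groups of snoRNA genes under 500 bp apart, in bp from the start of the first gene along the transcribed strand; SNR31 and SNR5 are divergent and are drawn on the forward strand. Dark bars are snoRNA genes and purple bars tRNA genes. In the groups with folds of 3.65 and 3.33 the summit lies in the tRNA gene.

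Where a tRNA gene lay in the peak, it held the summit. SNR57, SNR55 and SNR61 (chromosome XII, 794486 to 795024), a box C/D cluster, lay in a peak with a fold of 3.65 (3.43 to 3.87) and its summit in the tRNA gene YNCL0040W, 536 bp past the end of SNR61. SNR67 and SNR53 (chromosome V, 61352 to 61789), also box C/D, lay in a peak of 3.33 (3.14 to 3.54) with its summit in YNCE0004C, 145 bp past the end of SNR53. SNR33 (chromosome III, 142364 to 142546), an H/ACA gene, lay in a peak of 3.37 (3.17 to 3.57) with its summit in SUF16, 208 bp before its start. These were the 3 highest folds among the 50 peaks. They are values at tRNA genes, and the deposited list gives no separate value at these 6 snoRNA genes. Peaks with no tRNA gene met 57 of the 67 snoRNA genes (85.1%), against 12.4% of all nuclear genes.

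The 4 genes without an Acs2-FLAG peak were SNR84, an H/ACA gene, and SNR69, SNR87 and SNR58, box C/D genes, and all 4 were lone genes. The nearest Acs2-FLAG peak was 969 bp away from SNR87, with a fold of 1.25 and its summit in RPL14A. It was 1554 bp away from SNR84 with a fold of 3.12, 4960 bp from SNR69 and 22054 bp from SNR58. The peak near SNR84 had its summit in YDR524C-B and also overlapped an untagged peak. A fold below 1.16 would not have reached the lowest −log10 p of the Acs2-FLAG list at its lowest background, so weaker signal at these genes was not detectable in the list.

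Among the 8 snoRNA genes wholly inside a coding gene, a peak met 4 of 8 (exact interval 15.7 to 84.3%), and 0 of 8 held a summit. The folds were 1.71 at SNR18 in EFB1, 1.61 at SNR44 in RPS22B, 1.54 at SNR38 in TEF4 and 1.44 at SNR24 in ASC1. The summits of these 4 peaks lay 384 to 570 bp from the snoRNA gene. With 8 genes the share is imprecise, and no test of the difference was made.

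Of 20 genes for proteins that build and process snoRNAs, 2 had an Acs2-FLAG peak in the gene, which is 10.0% and near the 13.5% of all protein-coding genes, and 0 had an untagged peak. HIT1, for a factor of box C/D particle assembly, met a peak of 3.31 (3.11 to 3.52) with its summit in the tRNA gene HSX1. NRD1, for a protein of snoRNA transcription termination, met a peak of 2.36 (2.19 to 2.55) with its summit outside any annotated gene. The core protein genes NOP1, NOP56, NOP58 and SNU13 of the box C/D particle and CBF5, NHP2, NOP10 and GAR1 of the box H/ACA particle had none, and neither did RNT1.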

How the data were processed

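The authors deposited 2 narrowPeak lists, 1 per immunoprecipitate. Each pairs an immunoprecipitate with its strain's input, per the file headers, so peaks were called per library. The headers name the input first and do not say which served as background; folds were taken as immunoprecipitate over input. Per the submitters' processing notes, Trimmomatic, BWA, Picard and MACS2 were used with build R64; settings, treatment of duplicates and sequencing depth are not stated there. The deposited fold is a ratio of fragments at the summit to background. The deposited −log10 p and −log10 q are those of the summit, and the deposited score, 10 times the −log10 q rounded down, was not used.

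Genes and coordinates came from the RefSeq R64 table, and strand from the systematic name. Chromosome accessions were checked on tRNA genes: on each of 16 chromosomes at least 70% met a peak with the assigned name and at most 30.8% with another. Peaks sharing at least 1 bp with a gene were counted. Fragment counts were solved from the fold and −log10 p with the Poisson relations of MACS2, and came out whole within 0.05 at 907 of 912 Acs2-FLAG and 30 of 34 untagged peaks. Intervals are exact Poisson or Clopper-Pearson intervals at 95% and hold the background fixed; those of gene shares treat genes as independent. The solving and overlap steps were tested on simulated data. Positions 450000 to 500000 of chromosome XII were treated as ribosomal DNA. Guide classes and the list of 20 proteins came from general knowledge. The genes and lists were chosen with earlier results of these data known. Folds with intervals were given for the 10 strongest and 5 weakest lone genes, all clustered and tRNA-sharing genes and both U3 genes, SNR30, SNR10, SNR4 and SNR45. The planned promoter motif search was not run, since no sequence was used here. The software was scipy 1.17.1 and numpy 2.4.6 in Python 3.11.15, with pandas 2.3.3 for tables and matplotlib 3.10.9 for plots.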

Additional observations from a re-analysis of the deposited data

How the results depend on the processing

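Of 16 alternatives, 15 stayed within 1.5 times the reported count or within the binomial interval of the reported median. Some of the 15 could not have moved. Leaving out peaks with an untagged counterpart removed 0 of the 50 peaks, and no neighbours lay between 500 and 1000 bp apart. The bound of 1.5 times is also wide, since it keeps a count of 45 beside the reported 63. Requiring the summit inside the gene lowered the snoRNA genes with an Acs2-FLAG peak to 34 of 67, of which 32 are lone genes and 2 clustered; the 6 genes with a tRNA gene in the peak held 0. The count was 55 with a fold of at least 1.5 (12.4% of all nuclear genes) and 61 with a −log10 q of at least 5 (16.2%). It was 45 with the summit at most 100 bp away and 62 with at least 0.5 of the gene covered by the peak. For the 100 bp and 0.5 settings the share of all nuclear genes was not computed, so these counts have no comparison. Among lone genes alone, an alternative chosen after seeing the data, the count with a peak was 43 of 47. The untagged count stayed at 0 with genes widened by 500 bp, which could not change it, since the nearest untagged peak was 2777 bp away. The median fold ran from 1.81 to 1.93. The promoter motif alternative was not run. No paired analysis was possible because each group is 1 library. With 1 library per strain, the values describe these libraries.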
